A study of Mus musculus with 8 samples.

Results

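Gene expression of the ionotropic glutamate receptors of the AMPA and kainate types was measured in the hippocampus of mice given benzo[a]pyrene (BaP), a polycyclic aromatic hydrocarbon formed in combustion. The genes were the 4 AMPA receptor subunit genes (*Gria1*, *Gria2*, *Gria3* and *Gria4*) and the 5 kainate receptor subunit genes (*Grik1*, *Grik2*, *Grik3*, *Grik4* and *Grik5*). They were chosen by symbol, among 20660 genes named on the array through a RefSeq accession, and all 9 were found. They had 14 of the 55681 probes, each printed as a single spot, and 13 of these passed the filter on dim probes described below.

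The animals were adult male Muta Mouse, a transgenic strain with a bacterial reporter gene for mutation assays, aged 9 weeks. Both groups carried this transgene and were dosed by oral gavage in olive oil. Control mice received the vehicle and BaP mice received a daily dose of 70 mg/kg bw on 3 days, and the tissue was taken 24 hr after the last dose. One array was available for each of 4 control and 4 BaP mice, so that tests on all arrays compare 4 animals with 4 unless a value is missing. Each array carried hippocampal RNA labeled with Cy5 and a universal reference RNA, pooled from mouse cell lines, labeled with Cy3, with no dye swap. A log2 ratio below is that of Cy5 over Cy3 after correction, and a log2 fold change is the mean log2 ratio of BaP mice minus that of control mice. For 4 of the arrays (control mice 3 and 4 and BaP mice 3 and 4), GEO's title and source name put the mouse in different groups. Groups follow the titles here. With groups by source name, values of the receptor genes are given where the sign turned or the size moved by over 1.5 times. Of all tested probes, 3 were called by title and 0 by source name, and 2855 and 1430 reached 0.05 before adjustment. The same 4 arrays form the second row of the slide, so the arrays without this conflict are those of the first row.

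AMPA receptors carry most fast excitatory transmission in the brain and are assembled from *Gria* subunits into tetramers, whose insertion and removal at the synapse underlie much of synaptic plasticity. Kainate receptors are tetramers of *Grik* subunits that act at both sides of the synapse and, in the hippocampus, are best known from the mossy fiber synapses between dentate granule cells and CA3 pyramidal cells. Subunits encoded by *Grik1*, *Grik2* and *Grik3* can form channels on their own, while those of *Grik4* and *Grik5* need a partner of the first kind. Bulk tissue was measured, and fewer cells of a type cannot be told apart from less RNA per cell.

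Of the 59305 spots on an array, between 56.6% and 67.4% had a Cy5 signal well above background. Control mouse 1 stood apart, since 1483 spots of its array were marked as outliers, against 310 to 371 elsewhere. All 7 markers of neurons and all 6 of interneurons were tested and at least 2-fold above the reference in control mice, as were 3 of 4 markers each of CA1, CA2 and the dentate gyrus, and 2 of 5 of the thalamus. The mean log2 ratio of the neuron list was 5.47 to 5.81 in control and 5.41 to 5.63 in BaP mice. That of the erythroid list was 3.81 to 4.01 in control mice and 2.89 to 3.20 in BaP mice, lower with no overlap by title. On the arrays without a label conflict, it was 4.01 and 3.81 in control and 2.99 and 2.89 in BaP mice. On the others it was 4.00 and 3.95 in mice titled control and 3.11 and 3.20 in those titled BaP. Which label is right was not tested. The mean of the choroid plexus list varied within both groups, from 2.23 to 3.84 and from 1.73 to 4.81. The dentate gyrus list stood at 1.22 to 1.84 and 1.76 to 2.35, with 4 of 4 genes on the higher side in BaP mice. All 7 choroid plexus genes were on that side too. The CA1 list stood at 2.45 to 2.90 and 2.86 to 3.11, and the CA2 list at 2.51 to 2.61 and 2.50 to 3.04. Each had 3 genes higher and 1 lower. The CA3 list, of which 2 of 3 genes were tested, stood at 3.20 to 3.69 and 3.01 to 3.66, with 1 gene higher and 1 lower. What part the cells behind these lists had in the values of the receptor genes was not tested.

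All 13 tested probes were above the reference in control mice by at least 2-fold (adjusted p of 0.05 or less from limma), a call made for 18.8% of the 36825 probes tested for level. The filter for this test took either channel. *Grik4*, *Gria4* probe 1, *Grik5* and *Grik2* probe 1 met it in Cy3 as well. The other tested probes passed it through Cy5 alone, where they were high, so for them the call was largely set in advance. *Grik4* had a log2 ratio of 6.16 ± 0.05 (SD, n = 3), 71.5-fold over the reference, and was well above background in Cy3 on all 4 control arrays. *Gria4* probe 1 had 4.71 ± 0.31 (SD, n = 4), 26.1-fold, and *Grik5* had 2.96 ± 0.20 (SD, n = 4), 7.77-fold, each with Cy3 well above background on all 4 control arrays. With Agilent processed signals, another background treatment, the log2 ratios of these 3 probes were 7.13, 5.98 and 2.94. The reference held a measurable signal for these probes alone on every control array. A ratio depends on both RNAs and on the dyes, so the ratios of different probes have no order.

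For the other probes the reference was dim. Cy3 was well above background on 1 of the 4 control arrays for *Gria1*, whose log2 ratio was 5.07 ± 0.82 (SD, n = 4), on 2 and 1 for the probes of *Gria3*, at 4.75 ± 0.45 and 3.33 ± 0.43, and on 2 for *Grik2* probe 1, at 2.11 ± 0.29. With Agilent processed signals these ratios were 7.20, 6.55, 5.58 and 3.73, so they depend on how the dim reference was treated. For the remaining 6 tested probes, Cy3 was not well above background on any control array, and only a lower bound can be given. *Gria2* probes 1 and 2 were at least 10.6-fold and 4.36-fold higher in control hippocampus than in the reference. *Gria4* probe 2 was at least 7.89-fold, *Grik1* at least 4.08-fold and *Grik3* probe 1 at least 16.8-fold higher. For *Grik2* probe 2 the bound was 2.07-fold, hardly apart from its measured 2.08-fold. It is no firm limit, since the level fell under 2-fold in 3 alternatives. These bounds set the mean Cy5 signal of the control arrays against the lowest Cy3 signal well above background on each array, or the probe's own where that was higher. *Grik3* probe 2 was well above background in Cy5 on 1 of 8 arrays and in Cy3 on none, and was not tested; its log2 ratios were 0.11 to 0.39 in control and 0.02 to 0.45 in BaP mice.

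In the comparison of BaP with control mice, 0 of the 13 tested probes were called at the thresholds of 1.5-fold and 0.05 for the p adjusted by the Benjamini-Hochberg method in limma. Over the whole set of 32600 tested probes, 0.0092% were called (3 probes). At an unadjusted p of 0.05, 3 probes were lower and 0 higher, where 4.23% of all tested probes were lower and 4.53% higher. The same 3 probes, for *Grik4*, *Gria4* and *Grik3*, were lower in every BaP mouse than in any control mouse with a value, which held for 2.52% of all probes with at least 3 values in each group, and none was higher without overlap, which held for 2.52% as well. With 1 probe for each gene, the brightest, 7 genes had a negative and 2 a positive log2 fold change, with a median of -0.25. That median was 0.18 with groups by source name and -0.40 without control mouse 1. By source name none of the 3 probes was free of overlap, where 0.832% of all probes were lower in this way. The median of all tested probes was -0.00429. The gene-wise F test without moderation passed 0 of the 13 as well.

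**Figure D1:**
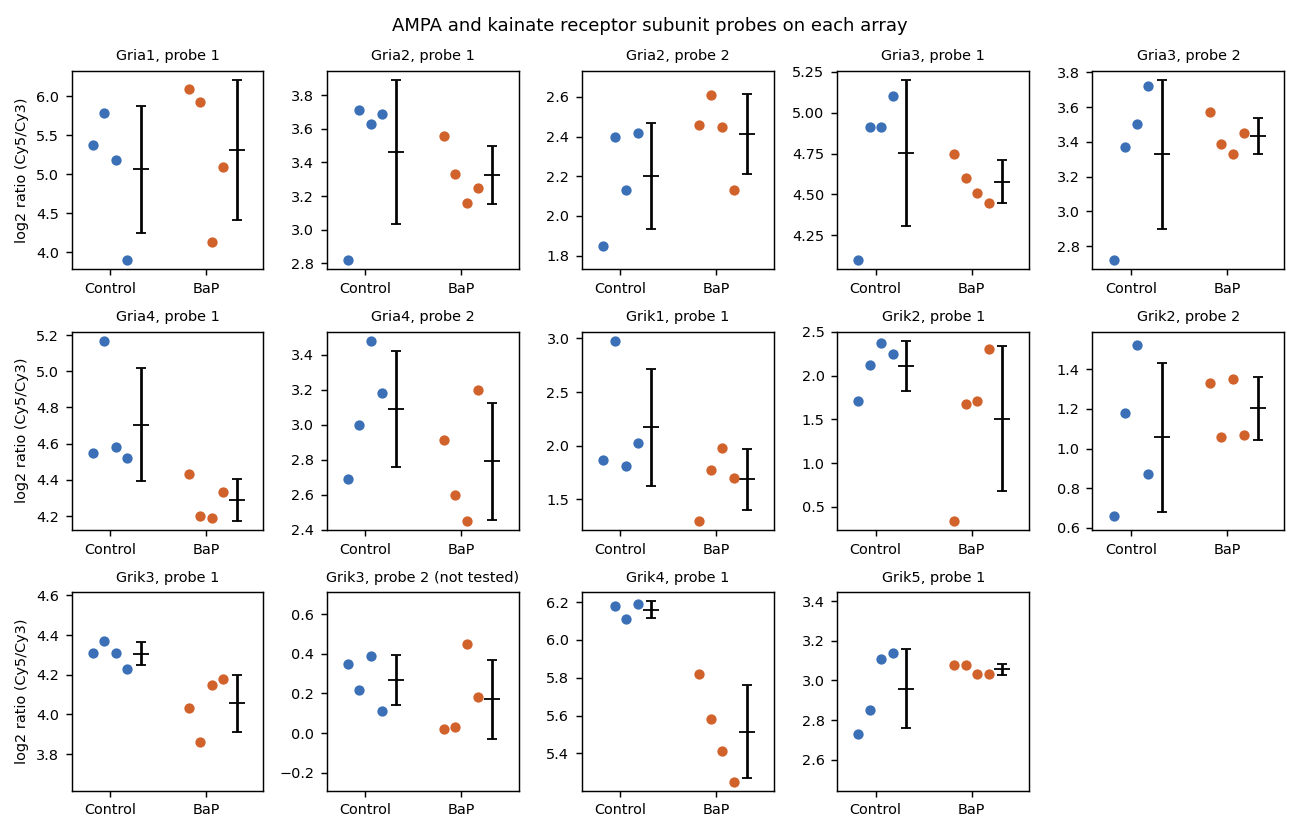
Log2 ratio of Cy5 (hippocampus) over Cy3 (reference) on each array for the 14 probes of the 9 receptor subunit genes, with control mice in blue, BaP mice in orange, replicates 1 to 4 from left to right, and the group mean ± SD as black bars. Each panel has its own vertical axis; the groups are apart for Grik4, Gria4 probe 1 and Grik3 probe 1 and overlap in the other panels, and the Grik4 spot of control mouse 1 is missing because it was marked as an outlier.

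Among the AMPA receptor genes, *Gria1* encodes a subunit that is added to synapses during long-term potentiation. Its log2 ratios were 5.38, 5.79, 5.19 and 3.90 in control mice and 6.10, 5.93, 4.13 and 5.09 in BaP mice. Control mouse 4 and BaP mouse 3 were the lowest of their groups, and the groups overlapped across nearly their whole range. The spot's Cy5 median signal was 832 at its lowest, in control mouse 4, and 5160 at its highest, in BaP mouse 1. BaP minus control gave a log2 fold change of 0.25 (SE 0.47, adjusted p = 0.899 from limma), and it changed sign to -0.02 without BaP mouse 1 and to -0.14 without control mouse 4.

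*Gria2* encodes the subunit whose edited form keeps calcium out of the channel. Probe 1 read 2.82, 3.71, 3.63 and 3.69 in control and 3.56, 3.33, 3.16 and 3.25 in BaP mice, and control mouse 1 lay apart below the other control mice. Its log2 fold change was -0.14 (SE 0.19, adjusted p = 0.851 from limma), -0.36 without control mouse 1 and -0.06 without control mouse 2 or 4. Probe 2 read 1.85, 2.40, 2.13 and 2.42 in control and 2.46, 2.61, 2.45 and 2.13 in BaP mice, with a log2 fold change of 0.21 (SE 0.15, adjusted p = 0.679 from limma), or 0.10 without control mouse 1. The probes, designed on different RefSeq transcripts of the gene, thus had opposite signs, and neither difference passed the test.

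*Gria3*, an X-linked AMPA subunit gene, was read by a pair of probes on 1 transcript. Probe 1 read 4.10, 4.91, 4.91 and 5.10 in control and 4.75, 4.60, 4.51 and 4.45 in BaP mice. Again control mouse 1 was the lowest, and every other control mouse was above every BaP mouse. For this probe the log2 fold change was -0.18 (SE 0.19, adjusted p = 0.802 from limma). Probe 2 gave 2.72, 3.37, 3.50 and 3.72 in control and 3.57, 3.39, 3.33 and 3.45 in BaP mice, and its log2 fold change was 0.11 (SE 0.18, adjusted p = 0.884 from limma). Without control mouse 1 the values for the probes were -0.40 and -0.09, and without control mouse 4 they were -0.06 and 0.24.

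*Gria4*, an AMPA subunit gene prominent in interneurons, had the clearest difference of the AMPA group. Probe 1 read 4.55, 5.17, 4.58 and 4.52 in control and 4.43, 4.20, 4.19 and 4.33 in BaP mice, so that the highest BaP mouse was just below the lowest control mouse. The log2 fold change was -0.42 (SE 0.14, adjusted p = 0.512 from limma), a ratio of 0.749. The 2-sided exact permutation test gave p = 0.0286, the smallest that 4 mice against 4 allow. Control mouse 2 stood above the other control mice, and without it the log2 fold change was -0.26. With groups by source name it was -0.13. Probe 2 read 2.69, 3.00, 3.48 and 3.18 in control and 2.91, 2.60, 2.45 and 3.20 in BaP mice, with overlap and a log2 fold change of -0.30 (SE 0.19, adjusted p = 0.662 from limma). For this probe, leaving out 1 mouse gave -0.44 (without BaP mouse 4) to -0.17 (without control mouse 3). The interneuron marker list gave 4.80 to 5.19 in control and 4.85 to 5.07 in BaP mice, with a difference of -0.03.

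Of the kainate receptor genes that can form channels alone, *Grik1* read 1.87, 2.98, 1.81 and 2.03 in control and 1.30, 1.77, 1.98 and 1.70 in BaP mice. Control mouse 2 was the highest and BaP mouse 1 the lowest, and the groups overlapped through BaP mouse 3. For *Grik1* the log2 fold change was -0.48 (SE 0.25, adjusted p = 0.596 from limma), and it was -0.22 without control mouse 2. In the first row of the slide it was -0.89 and in the second -0.08.

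*Grik2*, which encodes a main pore-forming kainate subunit of principal neurons, had a value that rested on the spot of 1 array, bright in both channels. Probe 1 read 1.71, 2.12, 2.37 and 2.25 in control and 0.34, 1.68, 1.71 and 2.30 in BaP mice, and its log2 fold change was -0.60 (SE 0.34, adjusted p = 0.634 from limma). The low ratio of BaP mouse 1 came with a Cy3 median signal of 656 at that spot, against 69 to 110 on the other 7 arrays. Its Cy5 signal of 737 was also the highest of the 8 arrays, against 249 to 392 on the others. Without BaP mouse 1 the log2 fold change was -0.21. From the Cy5 channel alone, with that bright spot still in, it was 0.08 (SE 0.23, adjusted p = 0.952 from limma). Probe 2 read 0.66, 1.18, 1.52 and 0.87 in control and 1.33, 1.06, 1.35 and 1.07 in BaP mice, with a log2 fold change of 0.14 (SE 0.17, adjusted p = 0.824 from limma), which was 0.01 without control mouse 1 and 0.30 without control mouse 3.

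*Grik3* encodes the third of these subunits. Probe 1 read 4.31, 4.37, 4.31 and 4.23 in control and 4.03, 3.86, 4.15 and 4.18 in BaP mice. BaP mouse 4 was the nearest to the control mice, just below control mouse 4. The log2 fold change was -0.25 (SE 0.09, adjusted p = 0.515 from limma), a ratio of 0.84 and thus short of 1.5-fold, with an exact permutation p of 0.0286. It was -0.15 with groups by source name.

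Of the genes whose subunits need a partner, *Grik4*, known for its expression in CA3 pyramidal cells and dentate granule cells, had the lowest adjusted p of the 13 probes. It read 6.18, 6.11 and 6.19 in control mice 2, 3 and 4 and 5.82, 5.58, 5.41 and 5.25 in BaP mice. The 3 control values lay close together, and all 4 BaP mice were below them. This gave a log2 fold change of -0.64 (SE 0.13, adjusted p = 0.368 from limma), a ratio of 0.64. The exact permutation p was 0.0571, the smallest that 3 mice against 4 allow. The fourth control value is missing because the spot of control mouse 1 was marked as not uniform. Kept in, that spot read 5.54, inside the range of the BaP mice, and the log2 fold change was -0.49 (SE 0.17, adjusted p = 0.517 from limma) with overlap. Within the second row of the slide the log2 fold change was -0.82, and in the first row, where 1 control mouse had a value against 2 BaP mice, the difference was -0.48, whereas with groups taken from the source names it was 0.31. In the Cy5 channel alone it was -0.45 (SE 0.16, adjusted p = 0.624 from limma), and the groups overlapped.

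*Grik5*, the other subunit of this kind, read 2.73, 2.85, 3.11 and 3.14 in control and 3.08, 3.08, 3.03 and 3.03 in BaP mice. The BaP mice lay inside the range of the control mice. The log2 fold change was 0.10 (SE 0.10, adjusted p = 0.799 from limma), 0.02 without control mouse 1 and 0.21 (SE 0.08, adjusted p = 0.624 from limma) in the Cy5 channel alone.

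**Figure D2:**
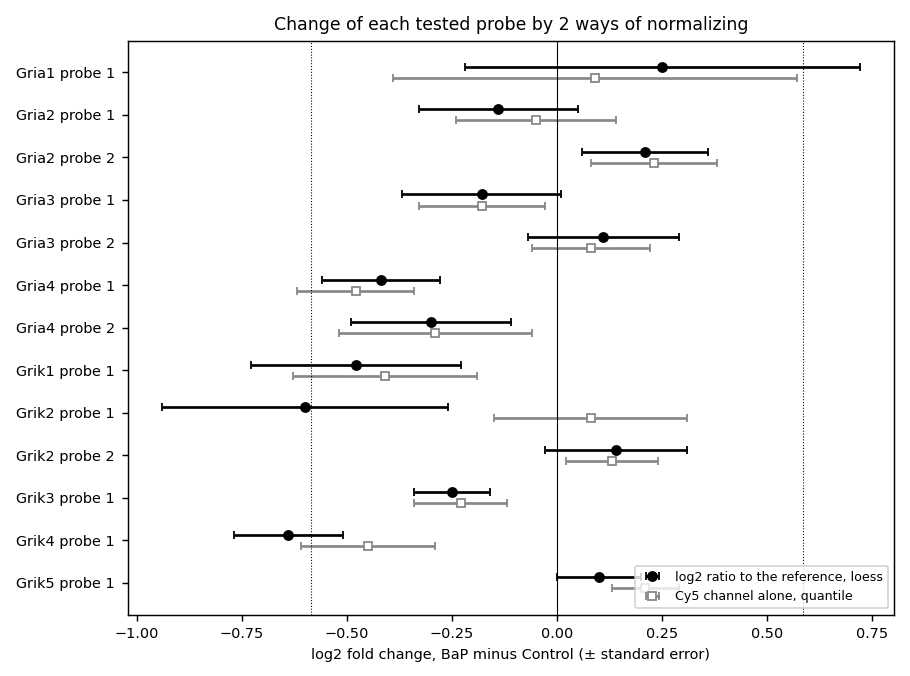
Log2 fold change of BaP minus control with its standard error for the 13 tested probes, from loess-normalized ratios to the reference (filled circles) and from the quantile-normalized Cy5 channel alone (open squares); dotted lines mark 1.5-fold. The ways of normalizing part most for Grik2 probe 1, at -0.60 and 0.08, where the spot of BaP mouse 1 was bright in both channels. Both ways are below 0 for Grik4, Gria4 and Grik3.

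Within the first and the second row of the slide, with 2 mice against 2, *Gria4* probe 1 had log2 fold changes of -0.54 and -0.29 and *Grik3* probe 1 of -0.40 and -0.10. The rows also differed for other receptor probes, with -0.90 and -0.30 for *Grik2* probe 1, 0.43 and 0.07 for *Gria1* and -0.09 and -0.50 for *Gria4* probe 2, while *Gria2* probe 2 had 0.41 and 0.02 and *Grik2* probe 2 had 0.28 and 0.01. The sign differed for *Gria2* probe 1 (0.18 and -0.46), both probes of *Gria3* (0.17 and -0.52, 0.44 and -0.22) and *Grik5* (0.29 and -0.10). In the Cy5 channel alone, 1 of them, *Gria4* probe 1, was lower without overlap, which held for 1.67% of all probes. Leaving out control mouse 1, whose array had the most outlier spots, gave 5 probes lower and 0 higher without overlap, the added ones being *Gria2* probe 1 and *Gria3* probe 1; of all probes, 5.05% were lower and 4.21% higher in this way. Under median centring, which moved the median log2 fold change of all tested probes to 0.17, the values were -0.33 for *Grik4*, -0.18 for *Gria4* and -0.10 for *Grik3*, or -0.49, -0.34 and -0.27 relative to that median.

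**Figure D3:**
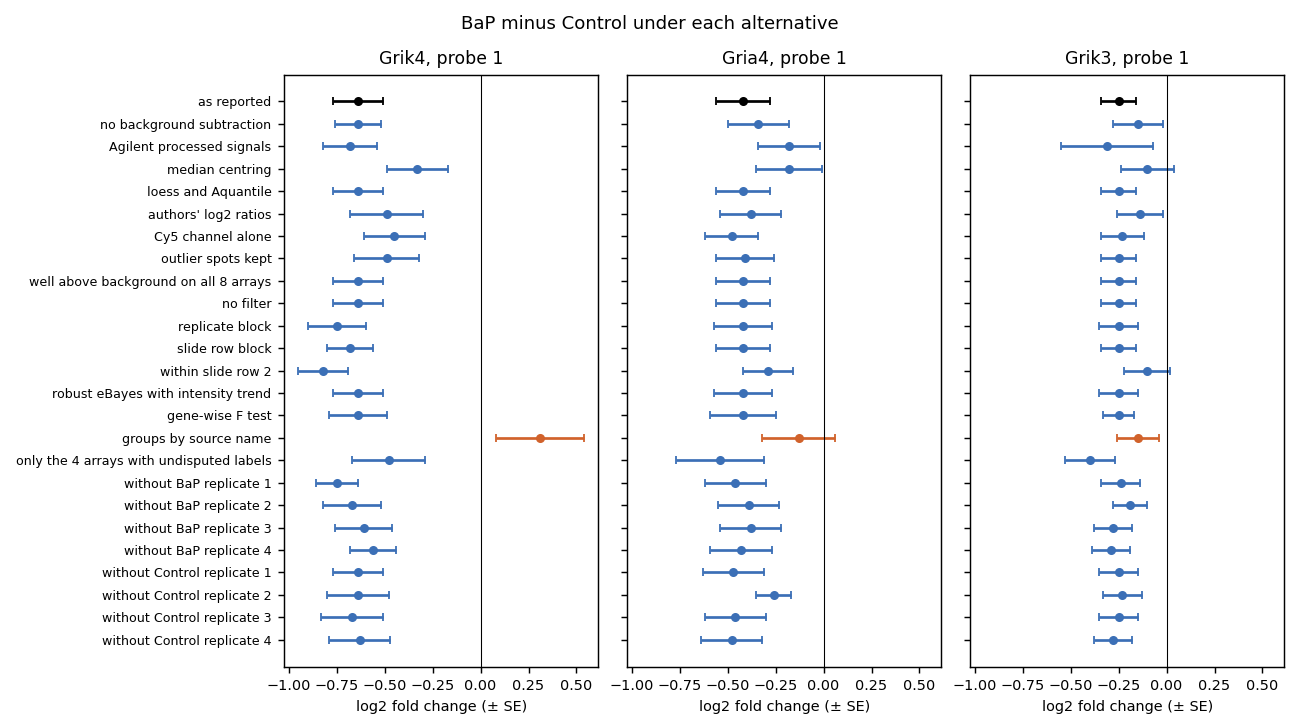
Log2 fold change of BaP minus control, with its standard error, for the 3 probes whose groups did not overlap, as reported (black), under each alternative (blue) and with groups taken from the source names of the samples (orange). The last turns the sign for Grik4, to 0.31, while all values for Gria4 and Grik3 stay below 0.

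The promoter sequences of these 3 genes are shown because BaP is a ligand of the aryl hydrocarbon receptor, a transcription factor that binds DNA at a short core motif. The windows run from 250 bases before to 50 bases after the RefSeq transcription start in mouse assembly GRCm38.p6, 5′ to 3′ on the strand of the gene, and capitals mark each GCGTG core or its reverse complement CACGC.
Grik4 (chr9:42944322-42944621, minus strand): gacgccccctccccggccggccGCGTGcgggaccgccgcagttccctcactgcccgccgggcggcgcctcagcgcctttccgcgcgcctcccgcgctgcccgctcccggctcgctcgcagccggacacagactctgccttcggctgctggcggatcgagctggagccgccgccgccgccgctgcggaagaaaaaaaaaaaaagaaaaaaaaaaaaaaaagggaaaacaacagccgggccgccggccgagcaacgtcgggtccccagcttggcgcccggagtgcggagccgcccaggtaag
Gria4 (chr9:4796185-4796484, minus strand): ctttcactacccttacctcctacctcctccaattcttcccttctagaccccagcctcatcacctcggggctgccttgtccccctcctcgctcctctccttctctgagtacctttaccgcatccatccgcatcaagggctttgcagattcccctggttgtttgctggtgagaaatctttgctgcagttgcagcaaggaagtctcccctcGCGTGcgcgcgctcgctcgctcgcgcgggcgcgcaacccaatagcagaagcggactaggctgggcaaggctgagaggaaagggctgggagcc
Grik3 (chr4:125490446-125490745, plus strand): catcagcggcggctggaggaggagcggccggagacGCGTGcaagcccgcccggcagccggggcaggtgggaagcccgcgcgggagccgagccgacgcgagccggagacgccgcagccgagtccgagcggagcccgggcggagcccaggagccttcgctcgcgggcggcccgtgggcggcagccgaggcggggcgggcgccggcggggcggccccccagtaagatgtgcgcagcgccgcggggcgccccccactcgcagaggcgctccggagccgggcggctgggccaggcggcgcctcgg
Each of the 3 windows held 1 match, which began 228 bases before the start for *Grik4*, 42 before for *Gria4* and 215 before for *Grik3*. Windows were given for 6 of the 9 genes; those of *Gria2* and *Grik2* also held the core, with 1 and 2 matches, and that of *Grik5* held none. Of all 32851 windows of this length, 32.4% held the core on either strand. That share takes no account of base content, and the 6 windows given were 59.7% to 82.0% G and C. A match is a stretch of letters and not a binding site, and the arrays hold no measure of binding.

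Of the genes that work with these receptors, 44 were listed and 42 had a tested probe, and 0 were called by limma at the same thresholds. Of the 42, 23 had a negative and 19 a positive log2 fold change, with a median of -0.02. Auxiliary and assembly proteins of AMPA receptors (18 of 18 tested) had a median of -0.02 and a range of -0.23 to 0.45. Scaffold and trafficking genes (12 of 13) had a median of -0.06, genes of extracellular clustering (7 of 8) 0.14 and genes of RNA editing (3 of 3) -0.08. Across the 42 genes 2 were lower and 1 higher at an unadjusted p of 0.05, where 4.23% and 4.53% of all tested probes were.

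*Adar*, which encodes an enzyme that edits adenosines in RNA, was the 1 gene of the 42 whose groups did not overlap, where 2.52% of all probes were lower in this way. It read 1.66, 1.81, 1.89 and 1.69 in control and 1.56, 1.52, 1.5 and 1.58 in BaP mice. Its log2 fold change was -0.22 (SE 0.08, adjusted p = 0.515 from limma; exact permutation p = 0.0286). Under median centring it was 0.06, below the median of all tested probes there, 0.17. The groups overlapped in the Cy5 channel alone. *Adarb1*, whose enzyme edits the *Gria2* transcript at the site that sets calcium entry, had -0.08 (SE 0.10).

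*Neto1*, the auxiliary subunit of hippocampal kainate receptors, read 6.05, 6.50, 6.76 and 6.69 in control and 6.52, 6.01, 5.92 and 6.13 in BaP mice. Control mouse 1 was again the lowest control, and the log2 fold change was -0.36 (SE 0.17, adjusted p = 0.584 from limma). It was -0.02 on the 4 arrays with undisputed labels, -0.70 on the other 4 and 0.34 with groups by source name. *Neto2*, its relative, had 0.08 (SE 0.13).

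*C1ql2* and *C1ql3* encode proteins secreted by mossy fibers that gather kainate receptors at the synapse. *C1ql3* read 5.89, 6.17, 6.20 and 5.71 in control and 6.38, 6.51, 6.23 and 6.14 in BaP mice, with a log2 fold change of 0.32 (SE 0.13, adjusted p = 0.537 from limma). *C1ql2*, which also stands in the dentate gyrus marker list, read 2.31, 2.75, 2.95 and 1.39 in control and 2.99, 2.60, 3.12 and 2.90 in BaP mice, with 0.55 (SE 0.29, adjusted p = 0.605 from limma). Both were higher without overlap in the Cy5 channel alone, which held for 3.08% of all probes, and neither passed the adjusted p there. Control mouse 4 was the lowest for each, and without it *C1ql2* had 0.23. These genes and *Grik4*, all known from granule cells, had differences of opposite sign, and their difference from each other was not tested.

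The scaffold gene *Grip1*, whose protein binds the tails of AMPA subunits, had a log2 fold change of -0.26 (SE 0.11, adjusted p = 0.544 from limma), and *Dlg3*, a synaptic scaffold of the membrane-associated guanylate kinase family, had 0.23 (SE 0.12, adjusted p = 0.6 from limma). *Shisa9*, an AMPA auxiliary subunit, had 0.21 (SE 0.11, adjusted p = 0.592 from limma). *Frrs1l*, needed for AMPA receptor assembly, had -0.21 (SE 0.11, adjusted p = 0.593 from limma), and 0.08 in the Cy5 channel alone. In each of these 4 genes the groups overlapped.

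**Figure D4:**
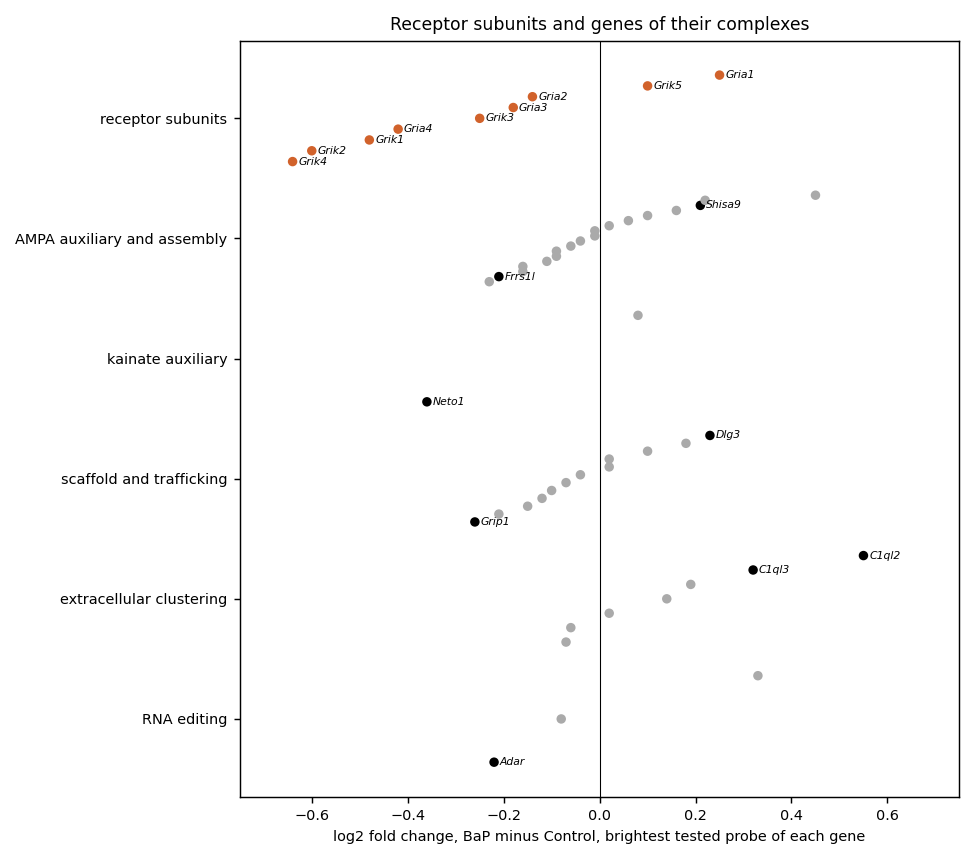
Log2 fold change of BaP minus control for the brightest tested probe of each receptor subunit gene (orange) and of 42 genes of their complexes by list, with the 8 genes of lowest unadjusted p in black and named and the rest in gray; height within a list only spreads the points. The subunit genes run from -0.64 to 0.25 and the other genes from -0.36 to 0.55, and none passed the adjusted p.

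Over the 8 arrays, the genes with the log2 ratios most like each subunit gene were found by Pearson's r, given as a description of 8 values (7 for *Grik4*). For *Gria3* they were *Dmd* (r = 0.98) and *Gria2* (r = 0.97), the only member gene among those found. For *Gria4* they were *Plxna3* (0.99) and *Gmppa* (0.97), for *Grik3* *Elof1* and *Sem1* (0.96 each), and for *Grik4* *Pclo* (0.99) and *Stau2* (0.98). *Gria1* was closest to *Psmd13* (0.98) and *Phtf2* (0.97), *Gria2* to *Mis12* and *Cct8* (0.97 each), and *Grik1* to *Sdad1* and *Fn3k* (0.96 each). *Grik2* was closest to *Derl2* (0.98) and *Fcrls* (0.97), and *Grik5* to *Ppp2r1a* (0.99) and *Nexmif* (0.98). Each was picked as the highest over all named genes with a value on every array, and the arrays share the reference pool and the slide.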

How the data were processed

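Hippocampal RNA of 4 control and 4 BaP mice was hybridized to 2-color Agilent 8x60K arrays on 1 slide, and the images were read with Agilent Feature Extraction 11.0.1.1. The authors deposited each spot's intensity in both channels as a median, with background levels, outlier marks and a log10 ratio, which was not used here. The authors also deposited log2 ratios described as LOWESS-normalized, whose scale and direction (log2, Cy5 over Cy3) were found by setting them against the scanner values (r of 0.996 to 0.997 per array). Their medians were -0.0457 to -0.0343 per array, and they served as an alternative. The authors tested by analysis of variance for microarrays.

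Spot medians were background-corrected with normexp (offset 50) in limma 3.58.1 under R 4.3.3; means had been planned, but medians were used. Control spots were left out, spots marked as outliers were set to missing, and log2 ratios were normalized within arrays by loess (span 0.3). Probes with Cy5 well above background on 4 or more of 8 arrays (32600 of 55681) were compared by lmFit and eBayes with Benjamini-Hochberg adjustment. For the level against the reference, the filter took either channel and the control mean was tested against 0. Bounds for a dim reference came from the channels after loess and Aquantile; without a dye swap they stay open to dye bias. Single values were also tested by exact permutation, 2-sided, over 70 assignments of the mice, or 35 where 1 value was missing. Summaries were made in Python 3.11.15 with pandas 2.3.3 and scipy 1.17.1. The fits were first tested on simulated data.

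Probes were named through a RefSeq gene table of GRCm38.p6 (names alone, since the array files name another build): 27235 of 28685 probes with a RefSeq accession (94.9%). The brightest tested probe stood for a gene. All probes of the 9 genes are named. Of the listed partner genes, those past the threshold and the 8 with the lowest unadjusted p were to be named, and *Adarb1* and *Neto2* were named after their values were seen. One further list of genes is not reported here. For likeness, the 2 genes with the highest r were named. The genes and lists were chosen with earlier results of these data known. Alternatives covered background, normalization, channel, filters, outlier spots, replicate and slide row blocks, the test, labels and each mouse left out. The number of arrays limits the precision.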

Additional observations from a re-analysis of the deposited data

Results flagged for a closer look

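Among 69 groups of 4 mice examined, over the receptor probes, the named partner genes and the marker lists, 2 held a mouse far from the other three by Dixon's test, where about 1 in 20 groups, or 3.45, would by chance. In control mice, *Gria2* probe 1 had a log2 ratio of 2.82 in control mouse 1, while the others were at 3.63 to 3.71, a gap of 0.911 of the range. In control mice, *Gria4* probe 1 had a log2 ratio of 5.17 in control mouse 2, with the others at 4.52 to 4.58, also a gap of 0.911 of the range. Without that mouse the groups still did not overlap, and 4.0% of all probes were then lower in this way.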

How the results depend on the processing

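Over 24 alternatives, 0 receptor probes and 0 partner genes passed the adjusted p and fold thresholds, and the lowest adjusted p of a receptor probe was 0.22 (*Grik4*, without BaP mouse 4). The median log2 fold change of the 9 genes stayed between -0.40 and -0.10, except with groups by source name, where it was 0.18. It was -0.40 without control mouse 1 and with the 4 arrays of undisputed labels, -0.15 without background subtraction, -0.14 with the authors' log2 ratios and -0.10 under median centring, or -0.27 relative to all probes.

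The 3 receptor probes lower without overlap became 2 with outlier spots kept (*Grik4* then overlapped), where 2.44% of all probes were lower in this way. They were 1 without background subtraction (*Grik4*, 2.34% of all probes), 1 with Agilent processed signals (*Grik4*, 1.96%) and 1 in the Cy5 channel alone (*Gria4*, 1.67%). They were 0 under median centring (0.307% of all probes), 0 with the authors' log2 ratios (2.37%) and 0 by source name (0.832%). They were 5 (with 4 higher) with the 4 undisputed arrays and 7 (0 higher) within slide row 2. There 2 mice face 2, or for *Grik4* on the undisputed arrays 1 control mouse faces 2, and of all probes 17.5% and 20.9% were lower and 20.8% and 16.2% higher. With each mouse left out they were 3 to 5, where 3.44% to 5.21% of all probes were lower. The 5 came without control mouse 1 (5.05% of all probes). Without control mouse 2, 3 or 4, the 3 include *Grik4* with 2 control values, and 2 are left if 3 values are asked of each group. *Grik5* was higher without overlap under median centring (9.22% of all probes) and by source name (1.89%), and *Gria2* probe 2 without BaP mouse 4 (5.58%).

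Signs turned by source name for *Gria2* probe 1 (0.32), *Gria3* probe 1 (0.35), *Gria4* probe 2 (0.20), *Grik4* (0.31), *Adar* (0.03), *Grip1* (0.01), *Neto1* (0.34), *Frrs1l* (0.10), *Shisa9* (-0.02), *Dlg3* (-0.06) and *C1ql2* (-0.29). They turned under median centring for *Gria3* probe 1 (0.02), *Adar* (0.06) and *Frrs1l* (0.03). Each of these values stayed below the median of all tested probes there, 0.17. Signs also turned with Agilent processed signals for *Gria3* probe 1 (0.21), and in the Cy5 channel alone for *Grik2* probe 1 (0.08) and *Frrs1l* (0.08). With the undisputed arrays they turned for *Gria2* probe 1 (0.18) and *Gria3* probe 1 (0.17), and within slide row 2 for *Gria3* probe 2 (-0.22) and *Grik5* (-0.10). Leaving out 1 mouse turned *Gria1* (-0.02 without BaP mouse 1, -0.14 without control mouse 4; 0.64 at the highest) and *Gria3* probe 2 (-0.09 without control mouse 1, 0.24 at the highest). The causes were not tested. By source name, values of unturned sign moved for *Gria4* probe 1 (-0.13), *Grik3* probe 1 (-0.15), *Grik2* probe 1 (-0.30), *Gria3* probe 2 (0.33), *Grik5* (0.19) and *C1ql3* (0.09). With Agilent processed signals they moved for *Gria1* (0.83), *Grik2* probes 1 (-1.08) and 2 (0.60), *Gria4* probe 1 (-0.18), *C1ql3* (0.78) and *Grip1* (-0.12). Over the 17 alternatives that can move a fold change, 333 of 357 recomputed fold changes of single probes kept their sign. The 24 that turned include those under median centring. With Agilent processed signals log2 levels of *Grik4*, *Gria4* probe 1 and *Grik5* were 7.13, 5.98 and 2.94, against 6.16, 4.71 and 2.96. Of the levels, *Grik2* probe 2 dropped under 2-fold in 3 alternatives.

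Same-numbered mice of the groups did not vary together (r of -0.354 to 0.0313), so the numbers of the titles do not pair the samples. With the replicate block, 0 receptor probes passed and the median was -0.25; *Grik4* had -0.75.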
